A study of Mus musculus with 8 samples.

Results

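The genes described here were 34 named genes of cholesterol synthesis, its control, sterol transport and storage, and oxysterol signalling and efflux, out of 39290 gene names in the table. All 34 passed the filter of a mean of at least 1 FPKM (fragment counts scaled by length and by depth) over the 8 libraries, as did 14418 names in all. The data were 4 mouse lung RNA sequencing libraries titled model and 4 titled high dose, from a study of Platycodin D, a saponin of Platycodon root, in mice with a model of idiopathic pulmonary fibrosis, a scarring lung disease. The sources used here give no strain, age, model-inducing agent or amount of drug, and no untreated library was analysed here. The labels assign to every library both lung tissue and MLF, a line of mouse lung fibroblasts. Sftpc, the surfactant protein of alveolar type 2 cells, had 10198.8 ± 1944.4 FPKM in model and 13299.9 ± 2460.4 FPKM in high dose, and the endothelial adhesion molecule Pecam1 had 219.0 ± 22.9 FPKM in model and 213.9 ± 21.2 FPKM in high dose (SD, n = 4 each), levels that go against a pure fibroblast line. In such bulk samples, fewer cells of a type and less RNA per cell cannot be told apart. Library codes in the descriptions begin with QH for the libraries titled model and with QM for those titled high dose, and each direction below would turn if the titles had been swapped.

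Cells make cholesterol from acetyl-CoA through the mevalonate pathway, which also supplies the isoprenoid groups used to anchor proteins to membranes. When sterol in the endoplasmic reticulum is low, the transcription factor SREBP2 is escorted by Scap to the Golgi and cleaved there, and it then switches on the synthesis enzymes, while Insig proteins hold the complex back when sterol is high. Excess sterol is read by the liver X receptors (LXR), which bind oxysterols and induce the exporters Abca1 and Abcg1 and the ubiquitin ligase Mylip, which removes lipoprotein receptors. In the lung, alveolar type 2 cells need cholesterol for surfactant, and alveolar macrophages take it up again and export it.

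Read counts were not used here, so absolute depth was unknown. Relative depth, read from the steps between low values, was 1.00 to 1.17 in the model libraries and 1.09 to 1.34 in the high dose libraries. Between 50.0% and 65.2% of a library's summed FPKM lay on rows without a gene name. The largest single row of a library held from 6.17% (model replicate 4) to 41.5% (high dose replicate 2) of that sum. On the first principal component (46.25% of the variance) the model libraries ran from -49.2 to -4.02 and the high dose libraries from 21.75 to 34.6. On the second (18.02%) model replicate 4 stood at -34.2 and model replicate 1 at 29.1, with -10.3 to 14.4 for the other libraries. No label says that replicates are separate animals, so the spread behind each p-value is that of the 8 libraries and may be technical.

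Cholesterol synthesis enzymes were higher in high dose almost from the start of the pathway to its end, while the LXR receptors and exporters showed no call. Of the 19 synthesis enzymes 14 rose, 0 fell and 5 did not pass, where 5.86% of all genes tested were called higher and 4.27% lower (limma, Benjamini-Hochberg adjusted p under 0.05 over 14418 genes). Group means of the 14 differed by 1.37- to 2.01-fold. In 16 of the 19 every high dose library lay above every model library, a pattern that 11.3% of all genes showed in this direction and 6.46% in the other. The median log2 fold change of the 19 was 0.53 against 0.04 for all genes tested, on the log2(FPKM + 1) scale on which all fold changes here are given. Of the 15 other members 3 rose (Insig1, Stard4 and Npc2), and 0 fell with limma. An unadjusted p under 0.05 was found for 10 of the 15, of which 2 had a lower level (Nr1h2 and Cyp27a1) and the others a higher one. Over all genes tested, 3688 of 14418 had an unadjusted p under 0.05. The number of enzymes called was 8 without model replicate 3 and 8 without high dose replicate 3, and 11 to 14 without any other library. Over all genes tested, calls higher also fell, from 845 to 364 without model replicate 3 and to 409 without high dose replicate 3. The median log2 fold change of the enzymes was 0.53 and 0.49 in those fits. The number of other members called higher was 0 without model replicate 3, high dose replicate 3 or high dose replicate 4, and 1 without model replicate 1 or model replicate 4. Since the members were listed with earlier results of these data known, the counts describe these libraries.

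**Figure D1:**
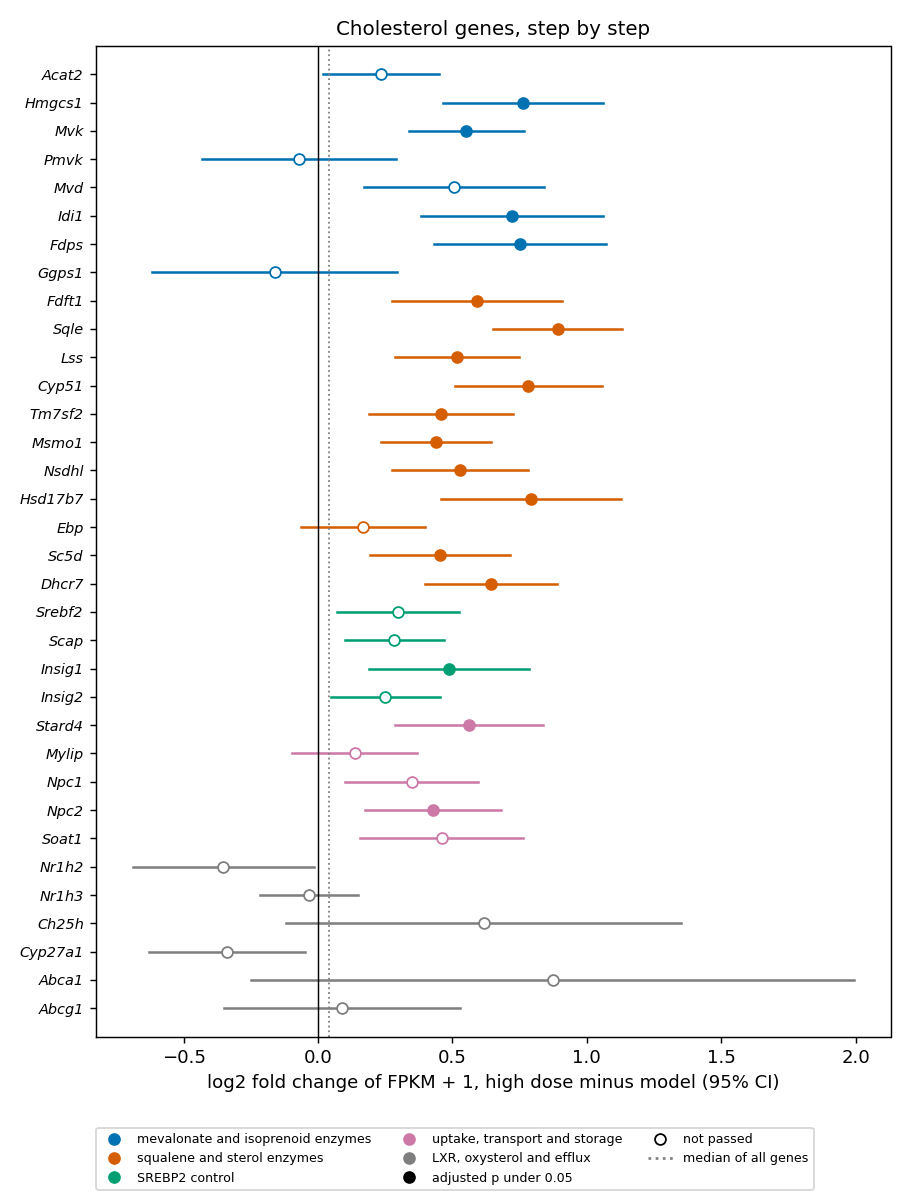
Log2 fold change (high dose minus model, log2(FPKM + 1) scale) with its 95% confidence interval for the 34 members in pathway order; filled points have an adjusted p under 0.05 and the dotted line is the median of all genes tested, 0.04. The filled points lie between 0.43 (Npc2) and 0.89 (Sqle), and the 6 genes of LXR, oxysterols and efflux at the bottom are all open.

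SREBP2 acts on promoters together with NF-Y, a factor that binds CCAAT boxes. RefSeq promoter sequences (GRCm38.p6) were at hand for 28 of the 34 members, among them 16 synthesis enzymes, and the 250 bases before the annotated gene start were searched on both strands. A CCAAT box stood in 14 of the 16 synthesis enzyme promoters (87.5%), in 7 of the 12 promoters of other members (58.3%) and in 34.5% of all 27025 promoters of the table. Of the 5 enzymes that did not pass, Pmvk, Mvd, Ggps1 and Ebp each had at least 1 box and Acat2 had none. Of the other members, Scap, Nr1h2, Nr1h3, Ch25h and Abca1 had none, while the LXR target Mylip had 3 boxes and Cyp27a1 had 2. The longer motif TCACNCCAC, one spelling of the sterol regulatory element, was found in 1 member, Hmgcs1, and in 1.04% of all promoters. Printed below are Hmgcs1, with the only sterol element match, Mvk, with the most CCAAT boxes (5), Hsd17b7, with the largest ratio of group means, and the LXR target Abca1, with neither motif. Capitals mark CCAAT or its reverse complement ATTGG and, in Hmgcs1, TCACCCCAC, which does not overlap a box. A match is a run of letters and not a shown binding site.
Hmgcs1 (chr13:119690101-119690350, plus strand): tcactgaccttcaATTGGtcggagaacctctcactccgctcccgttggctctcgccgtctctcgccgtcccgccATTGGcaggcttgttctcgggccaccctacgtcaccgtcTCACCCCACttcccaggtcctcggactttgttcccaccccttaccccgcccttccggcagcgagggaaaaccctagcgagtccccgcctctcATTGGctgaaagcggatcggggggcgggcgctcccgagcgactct
Mvk (chr5:114444019-114444268, plus strand): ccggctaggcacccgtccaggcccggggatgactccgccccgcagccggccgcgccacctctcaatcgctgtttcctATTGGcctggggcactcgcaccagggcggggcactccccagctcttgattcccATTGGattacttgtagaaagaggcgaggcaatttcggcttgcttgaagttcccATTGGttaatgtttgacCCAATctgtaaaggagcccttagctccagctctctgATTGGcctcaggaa
Hsd17b7 (chr1:169969206-169969455, minus strand): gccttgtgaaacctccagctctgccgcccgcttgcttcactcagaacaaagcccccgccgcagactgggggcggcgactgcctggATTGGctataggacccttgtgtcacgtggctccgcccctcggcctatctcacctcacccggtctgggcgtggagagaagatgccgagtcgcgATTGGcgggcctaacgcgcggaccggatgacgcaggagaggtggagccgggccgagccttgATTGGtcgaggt
Abca1 (chr4:53159896-53160145, minus strand): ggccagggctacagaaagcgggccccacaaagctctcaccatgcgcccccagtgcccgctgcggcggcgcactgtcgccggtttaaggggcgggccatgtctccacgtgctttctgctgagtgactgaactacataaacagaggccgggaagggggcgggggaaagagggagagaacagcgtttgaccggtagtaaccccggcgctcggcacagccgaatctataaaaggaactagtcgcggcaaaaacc

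**Figure D2:**
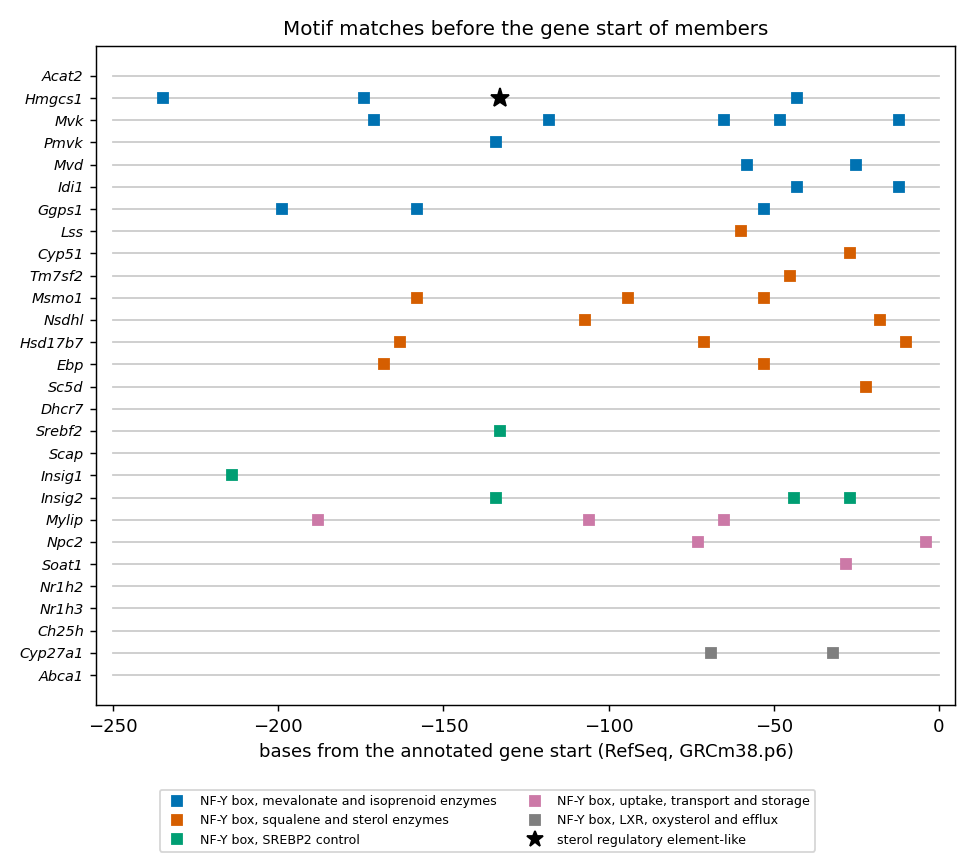
Positions of CCAAT boxes (squares, both strands) and of TCACNCCAC (star) in the 250 bases before the annotated gene start of the 28 members with a RefSeq promoter (the first listed window of each); the x axis is the distance from the start in bases. Boxes stand in 14 of 16 synthesis enzymes and in 7 of the 12 other members, with none in Scap, Nr1h2, Nr1h3, Ch25h and Abca1. Dhcr7 has none in the window drawn and 2 in the third window that the table lists for it.

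The early, mevalonate part of the pathway rose at 4 of its 8 enzymes, with a median log2 fold change of 0.53. Hmgcs1, the HMG-CoA synthase that commits acetoacetyl-CoA to the pathway, had 27.7, 35.2, 24.4 and 25.2 FPKM in model replicates 1 to 4 and 44.6, 48.2, 56.5 and 43.5 FPKM in high dose replicates 1 to 4. The lowest high dose library stood above the highest model library, and the mean rose from 28.1 ± 4.95 to 48.2 ± 5.92 FPKM (SD, n = 4 each), and the fitted log2 change was 0.76 ± 0.13 (SE, adjusted p = 0.0107). Mvk, the mevalonate kinase, whose promoter held 5 CCAAT boxes, had 7.76, 7.33, 6.63 and 7.68 FPKM in model replicates 1 to 4 and 10.5, 10.9, 13.1 and 10.6 FPKM in high dose replicates 1 to 4. Its model values were tight and did not overlap those of high dose, among which replicate 3 was highest, and the rise was 0.55 ± 0.09 (SE, adjusted p = 0.0101). Idi1, the isomerase that makes the reactive isoprene unit, had 13.7, 16.7, 12.1 and 11.3 FPKM in model replicates 1 to 4 and 21.1, 21.4, 29.1 and 19.6 FPKM in high dose replicates 1 to 4. The groups did not overlap and the rise was 0.72 ± 0.15, adjusted p = 0.0196 (log2), though without model replicate 3 it missed the threshold (0.68, adjusted p = 0.0597). Fdps, which joins isoprene units to farnesyl diphosphate, had 21.5, 26.8, 21.5 and 27.2 FPKM in model replicates 1 to 4 and 32.4, 41.5, 50.05 and 43.2 FPKM in high dose replicates 1 to 4. Every high dose library was higher than every model library, with a rise of 0.75 ± 0.14, adjusted p = 0.0143 (log2).

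The other 4 mevalonate enzymes did not pass. Acat2, the cytosolic thiolase that starts the pathway and not the sterol esterifying enzyme once given the same name, had 13.7 to 17.7 FPKM in model and 18.1 to 20.8 FPKM in high dose. Those ranges were close but separate, with a log2 fold change of 0.23 ± 0.10, adjusted p = 0.164 and a 95% interval of 0.02 to 0.45, and the division of reads between it and its close copy Acat3 is uncertain. Mvd, which decarboxylates mevalonate diphosphate, had 4.96 to 8.94 FPKM in model and 9.29 to 10.96 FPKM in high dose. Its libraries did not overlap either, yet the value of 0.51 ± 0.15, adjusted p = 0.0633 missed the threshold, which it passed without model replicate 4 (0.63, adjusted p = 0.0294). Pmvk, the phosphomevalonate kinase, had 25.7 to 37.7 FPKM in model and 26.9 to 38.7 FPKM in high dose. Its ranges overlapped almost fully (-0.07 ± 0.16, adjusted p = 0.827, 95% interval -0.43 to 0.29), and its sign turned without high dose replicate 1. Ggps1, which makes the geranylgeranyl group for protein prenylation and stands on a side branch, had 7.07 to 10.01 FPKM in model and 4.24 to 8.84 FPKM in high dose. High dose replicate 2 was the lowest library for it and the groups overlapped (-0.16 ± 0.20, adjusted p = 0.671, 95% interval -0.62 to 0.30).

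**Figure D3:**
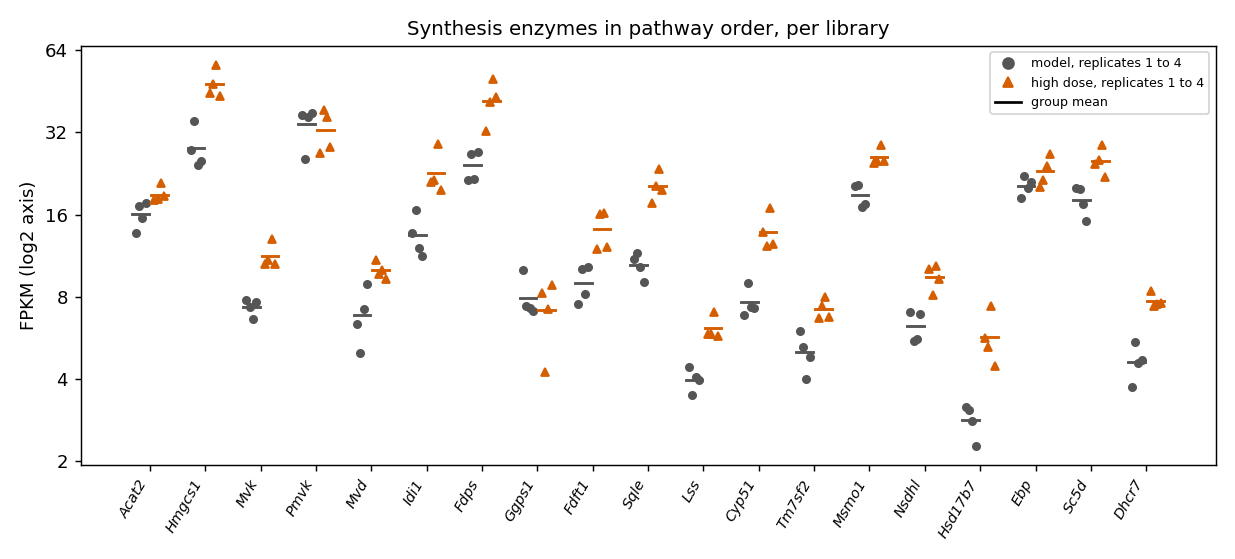
FPKM (log2 axis) of the 19 synthesis enzymes in pathway order in each of the 8 libraries, with group means as bars. The triangles of high dose stand above the circles of model for 16 genes, while those of Pmvk, Ggps1 and Ebp overlap.

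From squalene onwards the rise was nearly complete: 10 of 11 enzymes rose and 1, Ebp, did not pass, with a median of 0.53. Sqle, the squalene epoxidase and a rate-controlling step of the sterol branch, had 10.99, 11.6, 10.3 and 9.10 FPKM in model replicates 1 to 4 and 17.7, 20.3, 23.5 and 19.8 FPKM in high dose replicates 1 to 4. Its groups did not overlap, and the mean rose from 10.5 ± 1.07 to 20.3 ± 2.40 FPKM over 4 libraries each (SD). Its log2 change, 0.89 ± 0.11 (SE, adjusted p = 0.00404), was the largest of the 17 members that rose. Fdft1, the squalene synthase that commits farnesyl diphosphate to sterols, had 7.52, 10.1, 8.17 and 10.3 FPKM in model replicates 1 to 4 and 11.9, 16.1, 16.2 and 12.2 FPKM in high dose replicates 1 to 4. The groups did not overlap (0.59 ± 0.14, adjusted p = 0.0301), but the call was lost without model replicate 1 or 3 or high dose replicate 2 or 3 (0.52 to 0.55, adjusted p = 0.0760 to 0.0869) and with no filter on low values (adjusted p = 0.0652). Lss, which closes squalene epoxide into lanosterol, had 4.41, 3.49, 4.07 and 3.96 FPKM in model replicates 1 to 4 and 5.85, 5.86, 7.06 and 5.74 FPKM in high dose replicates 1 to 4. All high dose values exceeded those of model, with replicate 3 highest, at 0.52 ± 0.10, adjusted p = 0.0164, and without that library the call was lost (0.46, adjusted p = 0.0505).

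The demethylation of lanosterol was covered by 5 members. Cyp51, the demethylase that acts first on lanosterol, had 6.89, 9.02, 7.35 and 7.26 FPKM in model replicates 1 to 4 and 13.8, 12.3, 16.9 and 12.5 FPKM in high dose replicates 1 to 4. No model library reached the lowest high dose library, and the log2 change was 0.78 ± 0.12 (SE, adjusted p = 0.00721). Tm7sf2, a reductase of the following step, had 6.01, 5.22, 4.01 and 4.81 FPKM in model replicates 1 to 4 and 6.69, 7.41, 8.00 and 6.74 FPKM in high dose replicates 1 to 4. Its groups were separate by a small margin (0.46 ± 0.12, adjusted p = 0.0421), and it stayed called only without model replicate 1 or 2 (adjusted p = 0.0690 to 0.122 without any other library). Its call was also lost when rescaled over named rows (adjusted p = 0.0648) and with no filter on low values (0.0811). Msmo1, the methylsterol oxidase, had 20.4, 20.6, 17.01 and 17.6 FPKM in model replicates 1 to 4 and 24.7, 25.1, 28.8 and 25.1 FPKM in high dose replicates 1 to 4. It rose by 0.44 ± 0.09, adjusted p = 0.0200, with high dose replicate 3 the highest library, and missed the threshold without model replicate 3 or 4 or high dose replicate 3 (0.39 to 0.41, adjusted p = 0.0501 to 0.0601). Nsdhl, the sterol decarboxylating dehydrogenase encoded on the X chromosome, had 7.01, 5.53, 5.61 and 6.92 FPKM in model replicates 1 to 4 and 10.1, 8.12, 10.4 and 9.33 FPKM in high dose replicates 1 to 4. Its libraries did not overlap (0.53 ± 0.11, adjusted p = 0.0208), and the adjusted p was 0.0545 to 0.0650 without model replicate 3 or high dose replicate 1, 3 or 4. Hsd17b7, the ketoreductase that works with them and whose promoter is printed above, had 3.15, 3.09, 2.81 and 2.28 FPKM in model replicates 1 to 4 and 5.65, 5.23, 7.43 and 4.46 FPKM in high dose replicates 1 to 4. This was the member with the lowest mean level and the largest ratio of means, 2.01, and a log2 change of 0.79 ± 0.15 (SE, adjusted p = 0.0142).

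The last steps towards cholesterol rose at Sc5d and Dhcr7 and not at Ebp. Ebp, the sterol isomerase, had 18.5 to 22.2 FPKM in model and 20.2 to 26.7 FPKM in high dose. Those ranges overlapped (0.17 ± 0.10, adjusted p = 0.352, 95% interval -0.06 to 0.40). Sc5d, a sterol desaturase, had 20.1, 19.9, 17.4 and 15.1 FPKM in model replicates 1 to 4 and 24.5, 25.4, 28.9 and 21.9 FPKM in high dose replicates 1 to 4. The lowest high dose library was above the highest of model (0.45 ± 0.12, adjusted p = 0.0393), and the call held only without model replicate 2 or high dose replicate 4 (adjusted p = 0.0570 to 0.106 without any other library). Rescaling over named rows (adjusted p = 0.0631) and using no filter (0.0808) ended the Sc5d call too. Dhcr7, the reductase that yields cholesterol itself on one of its routes, had 3.75, 5.46, 4.57 and 4.68 FPKM in model replicates 1 to 4 and 8.37, 7.40, 7.502 and 7.62 FPKM in high dose replicates 1 to 4. Its high dose values were the most even of the 19 enzymes, with a coefficient of variation of 5.70%, and it rose from 4.62 ± 0.703 to 7.72 ± 0.440 FPKM over 4 libraries each (0.64 ± 0.11, adjusted p = 0.00975). High dose replicate 3 was the highest of all 8 libraries for 14 of the 19 enzymes, and for none of the 19 was it the lowest. The lowest library was spread over the model group, with model replicates 1 to 4 lowest for 6, 4, 4 and 4 enzymes and high dose replicate 2 for 1 (Ggps1). Calls of Hmgcs1, Mvk, Fdps, Sqle, Cyp51, Hsd17b7 and Dhcr7 held in each of the 8 fits without a library and under every other scaling, pseudocount, filter, variance model, row summing and block that gave them a value.

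The genes that control SREBP2 had a median log2 fold change of 0.29: of 4 members 1 rose, 0 fell and 3 did not pass. All 4 had an unadjusted p under 0.05, as had 3688 of all 14418 genes tested. Insig1, the retention protein that is itself induced by SREBP2, had 28.1, 33.7, 23.9 and 29.3 FPKM in model replicates 1 to 4 and 33.2, 45.7, 44.8 and 39.4 FPKM in high dose replicates 1 to 4. High dose replicate 1 lay within the model range and the other 3 lay above it (0.49 ± 0.13, adjusted p = 0.0481). That call held only without model replicate 2 or high dose replicate 1, with an adjusted p of 0.0868 to 0.130 without any other library. It was also lost with median centring, with no filter on low values and with untrended variances (0.46 to 0.49, adjusted p = 0.0569 to 0.0973). Insig2, its paralog that is less tied to SREBP2, had 15.4, 18.9, 16.2 and 14.6 FPKM in model replicates 1 to 4 and 18.7, 18.9, 20.5 and 19.9 FPKM in high dose replicates 1 to 4. Model replicate 2 reached the level of high dose, and the value of 0.25 ± 0.09, adjusted p = 0.119 passed only when that library was left out (0.32, adjusted p = 0.0290). Srebf2, the gene of SREBP2 itself, had 31.4, 33.9, 32.5 and 29.9 FPKM in model replicates 1 to 4 and 33.4, 45.3, 41.3 and 38.5 FPKM in high dose replicates 1 to 4. High dose replicate 1 lay inside the narrow model range and the other 3 above it (0.30 ± 0.10, adjusted p = 0.0993), and without it the gene was called (0.37, adjusted p = 0.0496). Scap, the sterol-sensing escort, had 14.4, 12.7, 15.4 and 14.9 FPKM in model replicates 1 to 4 and 16.5, 18.02, 18.5 and 17.6 FPKM in high dose replicates 1 to 4. Its libraries did not overlap, but the difference was small and did not pass (0.28 ± 0.08, adjusted p = 0.0608).

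Genes of sterol uptake, transport and storage had a median of 0.43, and 2 of 5 rose, 0 fell and 3 did not pass. Stard4, a soluble carrier that moves cholesterol between membranes and an SREBP2 target, had 8.82, 8.44, 7.15 and 5.91 FPKM in model replicates 1 to 4 and 12.5, 10.5, 11.5 and 11.7 FPKM in high dose replicates 1 to 4. The groups were apart and the value of 0.56 ± 0.12, adjusted p = 0.0227 lay within the range of the enzymes that rose, though the adjusted p was 0.0599 to 0.0670 without model replicate 3 or high dose replicate 1, 3 or 4. Npc2, the lysosomal protein that hands cholesterol to the membrane protein Npc1, had 248, 272, 246 and 249.8 FPKM in model replicates 1 to 4 and 383, 279, 354 and 359.8 FPKM in high dose replicates 1 to 4. It had the highest level of the 34, and its rise of 0.43 ± 0.11, adjusted p = 0.0429 held only without model replicate 2 or high dose replicate 2 (adjusted p = 0.0911 to 0.115 without any other library). Under quantile normalization, median centring, rescaling over named rows and no filter the Npc2 call was lost (0.39 to 0.43, adjusted p = 0.0562 to 0.0984). Npc1 had 15.8, 15.04, 18.4 and 16.7 FPKM in model replicates 1 to 4 and 24.8, 20.9, 17.7 and 22.03 FPKM in high dose replicates 1 to 4. High dose replicate 3 lay within the model range and the other 3 above it (0.35 ± 0.11, adjusted p = 0.0806). Soat1, which esterifies cholesterol for storage in droplets, had 16.4 to 20.01 FPKM in model and 21.5 to 32.8 FPKM in high dose. Its groups did not overlap, with high dose replicate 1 well above the rest, and it did not pass (0.46 ± 0.13, adjusted p = 0.0630). Mylip, the LXR target that marks lipoprotein receptors for degradation, had 17.7, 14.2, 16.4 and 13.9 FPKM in model replicates 1 to 4 and 19.04, 15.2, 17.3 and 17.3 FPKM in high dose replicates 1 to 4. The groups were mixed (0.14 ± 0.10, adjusted p = 0.454).

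On the LXR and efflux side 0 of 6 members were called in either direction with limma, and the median was 0.03. Since 5.86% of all genes tested were called higher and 4.27% lower, 0 calls among 6 genes cannot be told from those shares. Of the 6, 2 had an unadjusted p under 0.05, beside 3688 of all 14418 genes tested. Abca1, which loads cholesterol onto apolipoproteins, had 1.41, 9.07, 2.33 and 9.27 FPKM in model replicates 1 to 4 and 13.2, 6.78, 7.60 and 8.83 FPKM in high dose replicates 1 to 4. Model replicates 1 and 3 were below every other library, while model replicates 2 and 4 lay within the high dose range. The log2 fold change of 0.87 ± 0.49, adjusted p = 0.312 thus had an interval of -0.25 to 2.00, wider than for any other member. Abcg1, which exports cholesterol to mature high-density lipoprotein, had 14.9, 14.5, 17.9 and 18.6 FPKM in model replicates 1 to 4 and 26.03, 12.6, 16.2 and 17.5 FPKM in high dose replicates 1 to 4. High dose replicate 1 was the highest and replicate 2 the lowest of all 8 libraries (0.09 ± 0.19, adjusted p = 0.819, 95% interval -0.35 to 0.53), and the sign turned without high dose replicate 1 (-0.093). Nr1h3, which encodes LXR alpha, the form of macrophages and liver, had 16.9, 16.1, 17.8 and 19.4 FPKM in model replicates 1 to 4 and 18.2, 16.6, 17.3 and 16.3 FPKM in high dose replicates 1 to 4. The libraries of both groups were interleaved (-0.03 ± 0.08, adjusted p = 0.841, 95% interval -0.21 to 0.15). Nr1h2, which encodes the widely expressed LXR beta, had 51.6, 35.3, 53.5 and 53.6 FPKM in model replicates 1 to 4 and 40.6, 41.5, 31.9 and 35.8 FPKM in high dose replicates 1 to 4. Apart from replicate 2, the model libraries lay above all of high dose (-0.35 ± 0.15, adjusted p = 0.177), and without that replicate the gene was called lower (-0.49, adjusted p = 0.0174).

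The oxysterol-making enzymes had log2 fold changes of opposite sign, and neither passed. Ch25h, an endoplasmic reticulum hydroxylase that macrophages induce in inflammation and whose product holds back SREBP2, had 6.26, 5.55, 14.6 and 7.30 FPKM in model replicates 1 to 4 and 10.8, 10.1, 21.9 and 10.4 FPKM in high dose replicates 1 to 4. Replicate 3 was highest in both groups and the ranges overlapped (0.62 ± 0.32, adjusted p = 0.275, 95% interval -0.12 to 1.35). Cyp27a1, the mitochondrial sterol hydroxylase, had 14.8 to 22.3 FPKM in model and 12.03 to 15.5 FPKM in high dose. The groups overlapped at model replicate 2, and the other 3 model libraries lay above all of high dose (-0.34 ± 0.13, adjusted p = 0.134), and the gene was called lower without that library (-0.43, adjusted p = 0.0417). Set side by side, the LXR targets Abca1, Abcg1 and Mylip had a median log2 fold change of 0.14 with 0 of 3 called (0 with an unadjusted p under 0.05), and the 19 synthesis enzymes 0.53 with 14 called. The difference between the sets was not tested, and the wide interval of Abca1 includes the values of the enzymes.

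**Figure D4:**
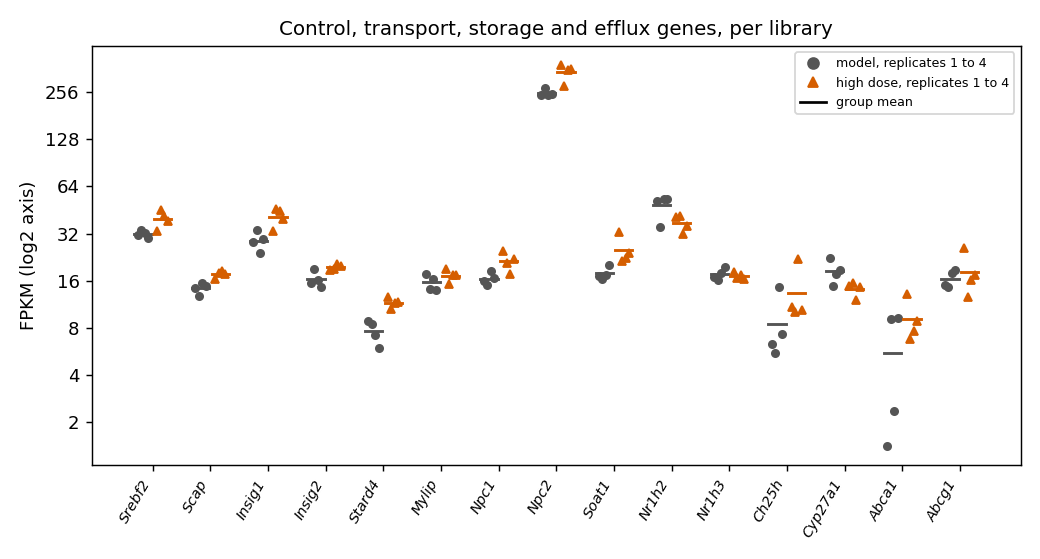
FPKM (log2 axis) of the 15 members outside the synthesis pathway in each library, with group means as bars. Stard4, Npc2, Scap and Soat1 have separate groups, and Abca1 shows 2 model libraries, replicates 1 and 3, far below the other 6.

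Further genes of sterol handling, 30 by name of which 29 were tested (Abcg4 was under the FPKM minimum), had a median of 0.11, with 3 higher, 2 lower and 24 not passing. The shares over all genes tested were 5.86% higher and 4.27% lower, and a list of 29 is too short to set its counts apart from them. Soat2, the second sterol esterifying enzyme, known from intestine and liver, had 5.35, 2.00, 4.09 and 6.28 FPKM in model replicates 1 to 4 and 0.576, 0.929, 0.981 and 0.573 FPKM in high dose replicates 1 to 4. Each high dose library was under 1 FPKM and each model library at least 2.00 FPKM, a fall of 1.56 on the log2 scale (-1.56 ± 0.26, adjusted p = 0.00940), opposite in sign to its relative Soat1. The added 1 sets much of that size at such low levels: the ratio of group means was 5.80, and the log2 change was -2.31 with 0.1 added and -2.44 with 0.01 added. Lbr, an inner nuclear membrane protein with the same sterol reductase activity as Tm7sf2, had 44.1, 30.6, 38.3 and 35.3 FPKM in model replicates 1 to 4 and 25.1, 22.5, 25.2 and 24.9 FPKM in high dose replicates 1 to 4. Its groups did not overlap and it fell (-0.57 ± 0.11, adjusted p = 0.0153), whereas Tm7sf2 rose. Lbr shapes the granulocyte nucleus, and the neutrophil marker Cxcr2 fell in the same libraries (-2.33 ± 0.27, adjusted p = 0.00404), as did 9 of 10 markers of these cells, whose part in the fall of Lbr was not tested. Nceh1, which frees cholesterol from esters, rose from 14.4 ± 1.02 to 20.1 ± 3.08 FPKM (0.45 ± 0.11, adjusted p = 0.0338), and Gpr183, the receptor of an oxysterol made through Ch25h, from 1.95 ± 0.550 to 3.79 ± 0.788 FPKM (0.70 ± 0.17, adjusted p = 0.0322). Lpcat3, a phospholipid-remodelling LXR target named after its values were seen, rose from 16.8 ± 1.96 to 24.9 ± 4.82 FPKM (0.53 ± 0.14, adjusted p = 0.0393; ± SD over 4 libraries for the means). The falls of Soat2 and Lbr held without any 1 library. The rise of Nceh1 held only without model replicate 2 or high dose replicate 2 (adjusted p up to 0.0821), that of Gpr183 only without model replicate 1 or 2 (up to 0.0895), and that of Lpcat3 only without high dose replicate 2 (up to 0.102). With no filter on low values the adjusted p was 0.0706 for Nceh1, 0.0652 for Gpr183 and 0.0819 for Lpcat3, and rescaling over named rows gave 0.0749 for Nceh1 and 0.0723 for Lpcat3.

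Genes that use the isoprenoid side products, for prenylation, dolichol and ubiquinone, gave 0 calls among 15 with limma, beside 5.86% of all genes tested called higher and 4.27% lower. Of the 15, 0 had an unadjusted p under 0.05, beside 3688 of all 14418 genes tested, and their log2 fold changes ran from -0.17 to 0.18. The smallest p belonged to Icmt, the methyltransferase of prenylated proteins (0.18 ± 0.09, adjusted p = 0.230), Coq2, an enzyme of ubiquinone synthesis (-0.17 ± 0.10, adjusted p = 0.319), Zmpste24, which trims prenylated lamin A (0.16 ± 0.09, adjusted p = 0.334), and Fnta, a prenyltransferase subunit (0.12 ± 0.08, adjusted p = 0.375).

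Several cell type markers moved in the same libraries. For the counts that follow, the shares over all genes tested were 5.86% called higher and 4.27% called lower. Of 10 alveolar type 2 markers 6 rose, 0 fell and 4 did not pass, with a median of 0.55, and the summed level of all listed genes ran from 11001.5 to 16309.1 FPKM in model and 14931.7 to 21448.2 FPKM in high dose. Among them Abca3, a lamellar body lipid transporter, rose by 0.56 ± 0.09, adjusted p = 0.00936, and Sftpd, a surfactant collectin, by 0.74 ± 0.15, adjusted p = 0.0181, a call lost without high dose replicate 3 or 4 (adjusted p up to 0.0558). Of 10 fibroblast markers 3 rose, 0 fell and 7 did not pass (median 0.72), with sums of 393 to 701 FPKM in model and 929.9 to 1484 FPKM in high dose. Alveolar macrophage markers had 1 higher, 1 lower and 8 not passing (sums of 484 to 1238 and 517 to 624 FPKM). Their highest sum, in model replicate 4, held 663 FPKM of Fabp4 alone. The adipocyte sum was highest in that library too, and this link was not tested. Chil3 was in both the macrophage and the monocyte list. Endothelial markers had 0 called and 3 with an unadjusted p under 0.05, beside 3688 of all 14418 genes tested (sums of 1272 to 1652 and 1297 to 1635 FPKM). Of 9 monocyte markers tested 4 fell and 0 rose (674 to 1551 and 598 to 725 FPKM), and of 10 neutrophil markers 9 fell and 1 rose (1207 to 2998 and 599 to 764 FPKM). Proliferation genes had 0 of 10 called and 0 with an unadjusted p under 0.05 (25.2 to 57.9 and 22.7 to 52.9 FPKM), and adipocyte markers 0 of 7 and 0 (36.7 to 397 and 15.7 to 158.8 FPKM). No group mean of a listed marker was at 0.

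Each library was also given a score per list, the mean over genes of log2(FPKM + 1) after subtracting the gene mean over the 8 libraries. The synthesis score was -0.32 to -0.20 in model and 0.19 to 0.42 in high dose. Differences from the marker scores were added after the data were seen. Minus the score of the endothelial markers the groups did not overlap (-0.46 to 0.01 and 0.04 to 0.47), and likewise minus that of the alveolar macrophage markers (-0.70 to 0.05 and 0.22 to 0.42). Both marker scores overlapped between the groups themselves, so these differences cannot show whether cell composition had a part. Minus the monocyte score (-0.94 to -0.09 and 0.43 to 0.79) or the neutrophil score (-1.99 to -0.63 and 0.92 to 1.87) the groups were apart. Both of those scores were lower in every high dose library than in any model library, opposite to the synthesis score. Separation after subtracting them was therefore fixed in advance and shows nothing further. Minus the score of the alveolar type 2 markers, the groups overlapped almost fully, at -0.17 to 0.23 in model and -0.23 to 0.21 in high dose. Relative to the fibroblast markers they overlapped too, at -0.27 to 0.61 and -0.39 to -0.06. Differences from the proliferation markers (-0.76 to 0.21 and -0.17 to 0.71) and the adipocyte markers (-2.53 to 0.72 and -0.26 to 1.84) overlapped as well. Those 2 marker scores spread more widely within each group than the synthesis score. They were -0.41 to 0.44 and -0.50 to 0.40 for proliferation, and -0.95 to 2.28 and -1.65 to 0.68 for adipocytes. With such spread, overlap of these differences cannot show whether these cells had a part. The median log2 fold changes were 0.53 for the enzymes and 0.55 for the type 2 markers, and the part of cell composition in the rise was not tested. The low Abca1 libraries, model replicates 1 and 3, were also the lowest on the fibroblast score (-0.80 and -0.93, against -0.11 and 0.01 in model replicates 2 and 4). On the adipocyte score they were again the lower ones of model (-0.95 and -0.50, against 1.15 and 2.28). High dose replicates 1 and 4 were lower still on that score (-1.65 and -1.31). Neither link was tested.

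**Figure D5:**
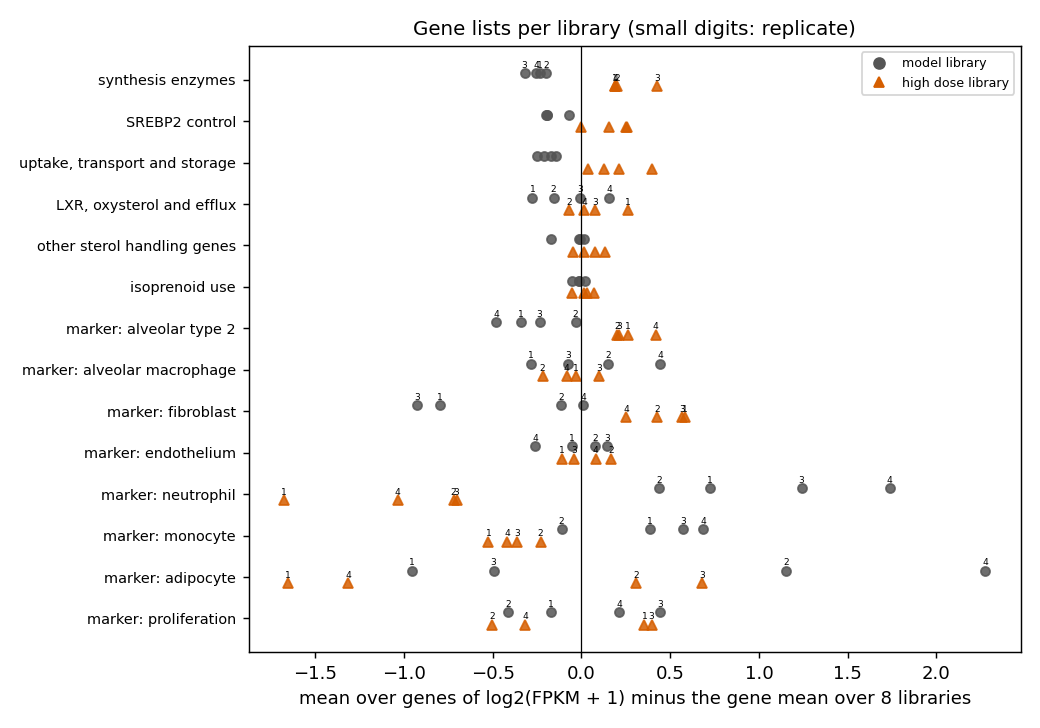
Score of each gene list per library (x axis: mean over the listed genes of log2(FPKM + 1) minus the gene mean over 8 libraries; small digits give the replicate). Synthesis enzymes and alveolar type 2 markers are higher in all 4 high dose libraries with no overlap, neutrophil markers are lower in all 4, and the scores of isoprenoid use and of LXR, oxysterols and efflux overlap.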

How the data were processed

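RNA sequencing of 8 mouse lung libraries was deposited as 1 table with a column per library and replicates not pooled. The values are taken as FPKM made by the authors: the header names no unit, and FPKM was inferred from decimals and unequal column sums. Per the submitters' processing notes the genome build was mm39, and the aligner, counter and annotation are not given in the sources used here. Per the labels' protocols, libraries came from total RNA by a SMARTER mRNA kit.

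Rows of 1 gene name were summed (no member lay on more than 1 row), names with a mean of at least 1 FPKM were kept, and limma 3.58.1 (R 4.3.3) was run on log2(FPKM + 1) with the 2 groups, no covariate, trended robust variances and two-sided p-values adjusted by Benjamini-Hochberg over 14418 genes at 0.05. The added 1 understates changes of low genes. SD is over 4 libraries and SE is of the fitted change. The fit was tested on simulated data. Plots used Python 3.11.15 and matplotlib 3.10.9. Relative depth came from rows under 0.3 FPKM in every library.

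Groups came from the titles. Members and gene lists were chosen with earlier results of these data known. Full values are given for members that passed and, whatever their result, for a named set (Srebf2, Insig1, Insig2, Scap, Abca1, Abcg1, Mylip, Nr1h3, Nr1h2, Hmgcs1, Sqle, Npc1 and Ch25h), and, of other pathway lists, for up to 4 genes of smallest p. Alternatives covered scaling, pseudocount, filter, variance model, row summing, a block for the replicate number, and leaving out each library in turn. Some genes of this pathway are not reported here.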

Additional observations from a re-analysis of the deposited data

Results flagged for a closer look

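The 34 members were looked at in both groups, 68 groups of 4 libraries, for a library whose gap to its nearest neighbour exceeded Dixon's 95% critical share of the group's range. That happened in 8, where chance flags about 1 in 20 groups of independent values. All 68 groups come from the same 8 libraries and are not independent, so no excess over chance can be read from the 8 flagged groups. In 4 of them the library was high dose replicate 3, each time the highest of its group. Mvk, the mevalonate kinase, had 13.1 FPKM there against 10.5 to 10.9 FPKM in the other 3. Lss, the lanosterol synthase, had 7.06 FPKM there against 5.74 to 5.86 FPKM in the other 3. Msmo1, the methylsterol oxidase, had 28.8 FPKM there against 24.7 to 25.1 FPKM in the other 3. Ch25h, the oxysterol-making hydroxylase, had 21.9 FPKM there against 10.1 to 10.8 FPKM in the other 3. Model replicate 2 was the library in 3 others and model replicate 1 in 1. Pmvk, the next kinase, had 25.7 FPKM in model replicate 2 against 36.5 to 37.7 FPKM in the other 3 libraries of its group. Ggps1, the geranylgeranyl diphosphate synthase, had 10.01 FPKM in model replicate 1 against 7.07 to 7.40 FPKM in the other 3 libraries of its group. Npc2, the lysosomal carrier, had 272 FPKM in model replicate 2 against 246 to 249.8 FPKM in the other 3 libraries of its group. Nr1h2, the gene of LXR beta, had 35.3 FPKM in model replicate 2 against 51.6 to 53.6 FPKM in the other 3 libraries of its group.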

How the results depend on the processing

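No fit called a synthesis enzyme lower, and the median log2 fold change of the 19 enzymes stayed between 0.49 and 0.61 and that of the 3 LXR targets between 0.09 and 0.24 over the settings tried. Enzymes called higher were 14, and 10 to 14 under other scalings, pseudocounts, filters, variance models, unsummed rows and the replicate block, 8 to 14 with each library left out, and 8 with a log2 change over 0.58 added, a setting chosen after seeing the data. Other members called higher were 3, and 1 with median centring, 1 with no filter on low values, 0 with that added fold threshold and 0 to 4 without a library. Other members called lower were 0, and 0 to 2 without a library, the 2 being Nr1h2 and Cyp27a1 without model replicate 2. Over all genes, calls higher were 845, and 518 with no filter on low values (29739 genes tested), 486 with the replicate block and 364 to 1176 without a library, and calls lower were 616, and 336 to 969 without a library. The replicate numbers were not shown to pair the libraries: same-numbered libraries deviated together with correlations of 0.15, 0.28, -0.07 and -0.09, and the block left 10 enzymes, 2 other members and 469 lower genes called. With the block the calls of Fdft1, Tm7sf2, Msmo1, Sc5d, Insig1, Npc2, Gpr183, Lpcat3 and Sftpd were lost (adjusted p = 0.0503 to 0.103), and Ch25h was called (0.62, adjusted p = 0.0256). Over the 34 members, 542 single-gene results kept direction and side of the threshold, 59 fell below it, 6 rose above it and 4 turned in sign, none of the 4 called: Pmvk -0.20 to 0.013 (positive without high dose replicate 1), Ggps1 -0.27 to 0.038 (positive without high dose replicate 2), Nr1h3 -0.070 to 0.014 (positive without model replicate 4) and Abcg1 -0.093 to 0.24 (negative without high dose replicate 1), the ranges being log2 fold changes over the fits without a library. Pecam1 -0.089 to 0.019 turned positive without model replicate 2, model replicate 3 or high dose replicate 1. Hsd17b7, Soat2 and Gpr183 had no value with a minimum of 5 FPKM. The cause of these changes was not tested. Without read counts, precision rests on the 4 libraries of each group.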
